A study of Mus musculus with 10 samples.

Results

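Antimicrobial and acute response genes of the colon epithelium were examined in mice with colitis. The 10 genes were taken by their symbols, *Reg3b*, *Reg3g*, *Lcn2*, *Saa1*, *Saa3*, *Nos2*, *Duox2*, *Duoxa2*, *Dmbt1* and *Retnlb*, and were 10 of the 56691 genes counted. RNA was sequenced from the colon of 5 mice given dextran sulfate sodium (DSS, a detergent-like polymer that injures the colon lining) and 5 mice given DSS and then chick early amniotic fluid (ceAF, fluid drawn from chicken eggs early in incubation). The mice were male C57BL/6 bought at 8 weeks of age. DSS was drunk at 3% over 7 days in both groups, after which the ceAF mice were gavaged with 15 mL/kg ceAF for 10 days. By the scheme of the experiment, DSS mice were gavaged with water over the same 10 days and both groups were sampled at the end of them. The stretch of colon taken for RNA is not given in the sources used here, and the part of site in any difference between the groups was not tested. Mice without DSS were not analysed here, and the values therefore do not show how far each gene was from its level in an uninjured colon. The labels number the samples within each group, and the p-values measure the spread between these samples as numbered.

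As background, cells lining the colon release proteins that bind or kill bacteria, withhold iron from them or make reactive oxygen and nitrogen species close to the surface. Interleukin 22 and interleukin 17 from lymphoid cells, interleukin 1 and interleukin 6 family cytokines, interferon gamma and bacterial products switch many of these genes on during injury, whereas *Retnlb* in goblet cells answers to interleukin 4 and interleukin 13. Neutrophils and macrophages entering injured tissue make some of the same proteins, among them lipocalin 2 and serum amyloid A3.

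The libraries held 14676471 to 19901549 counts on genes. Levels per mouse are given as CPM, counts scaled to a common library size after normalization by TMM, a trimmed mean of log ratios between libraries. The order of levels between genes is given as FPKM, the deposited count divided by exonic length and library total. Ratios of CPM between genes do not correct for length and only show how steady a pair was over the mice. By the median FPKM over the 10 mice, *Dmbt1* was highest at 812, followed by *Reg3b* at 556, *Saa1* at 404, *Retnlb* at 190, *Duox2* at 109, *Duoxa2* at 84.7, *Reg3g* at 81.6, *Nos2* at 49.5, *Saa3* at 13.4 and *Lcn2* at 2.53. The ranges over mice were wide enough for most neighbours in this order to overlap, with *Reg3b* between 34 and 3325 FPKM and *Dmbt1* between 489 and 2249 FPKM. Together the 10 genes took between 0.605% of all counts in ceAF-2 and 2.2% in DSS-5, of which *Dmbt1* alone took 0.377% and 1.74%.

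None of the 10 genes passed the adjusted p-value limit. All 10 passed the filter on low counts. By edgeR (quasi-likelihood test, Benjamini-Hochberg over the 16545 genes tested), their adjusted p-values lay between 0.693 and 0.984. With the limits set at an adjusted p-value below 0.05 and a log2 change of 1 or more either way, 0 of the 16545 genes (0%) were called by edgeR. DESeq2 at the same limits called 25 of 21520 genes (0.116%) and 0 of the 9 among the 10 to which it gave a p-value, all but *Saa3*. At an unadjusted p-value under 0.05, 1 of the 10 genes, *Lcn2*, was lower in ceAF mice, beside 1146 of all genes tested in either direction (6.93%) and 607 in the lower direction (3.67%). The groups overlapped for each of the 10 genes, while 205 of all genes tested had groups that did not overlap (1.24%). The log2 fold change of ceAF against DSS was below 0 for 7 of the 10 genes, beside 48.6% of all genes tested, and its median was −0.31 for the 10 genes and 0.01 for all. Without DSS-5, 4 of the 10 were below 0 and their median was 0.11. Over all 10 mice, both groups together, the highest was above the lowest by 161-fold for *Reg3g*, 138-fold for *Lcn2*, 116-fold for *Reg3b* and 75.2-fold for *Saa3*, beside a median of 2.09-fold over all genes tested.

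**Figure D1:**
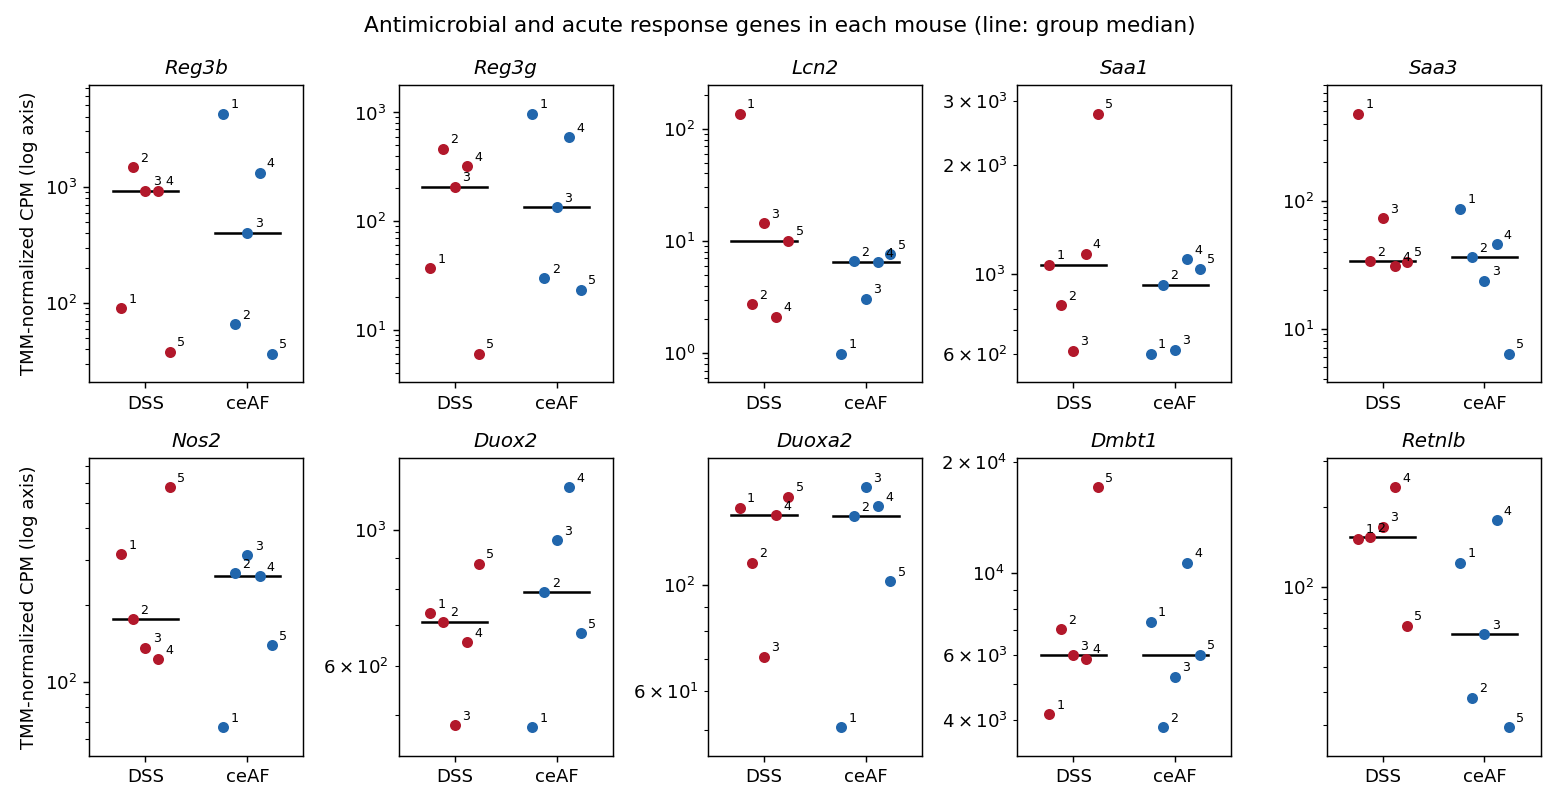
TMM-normalized CPM of the 10 genes in each mouse on log axes, with DSS mice in red, ceAF mice in blue, the number of each mouse beside its point and a line at the group median. The groups overlap in each panel, DSS-1 is highest for *Lcn2* (137 CPM) and *Saa3* (479 CPM), DSS-5 for *Saa1*, *Nos2* and *Dmbt1*, and ceAF-1 for *Reg3b* and *Reg3g*.

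*Reg3b* and *Reg3g* encode secreted C-type lectins of the gut lining, and the product of *Reg3g* kills Gram-positive bacteria. *Reg3b* stood at 90.2, 1467, 925, 925 and 38.3 CPM in DSS-1 to DSS-5 and 4252, 66, 402, 1316 and 36.8 CPM in ceAF-1 to ceAF-5. Each group held mice with high and mice with low levels, since DSS-1, DSS-5, ceAF-2 and ceAF-5 were at or below 90.2 CPM and the other 6 mice at or above 402 CPM. *Reg3g* stood at 37.03, 466, 208, 319 and 6.06 CPM in DSS-1 to DSS-5 and 976, 29.9, 135, 593 and 23.4 CPM in ceAF-1 to ceAF-5. The same 4 mice were lowest for both genes, ceAF-1 was highest for both, and the groups overlapped. In bulk tissue, fewer cells of a type and less RNA per cell cannot be told apart.

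The group means of *Reg3b* were 689 ± 612 CPM in DSS mice and 1214 ± 1775 CPM in ceAF mice (SD, n = 5 each). They gave a log2 fold change of 0.82 (SE 1.23, 95% interval −1.88 to 3.51), with an adjusted p = 0.935 (edgeR quasi-likelihood, Benjamini-Hochberg). An exact two-sided permutation test on log2 CPM over the 252 assignments of 5 of the 10 mice, 1 test for each of the 10 genes and not adjusted, gave p = 0.96 for *Reg3b* and p = 0.698 for *Reg3g*, where the smallest p this design can give is 0.00794. The log2 fold change of *Reg3g* was 0.76 (SE 1.14). Without ceAF-1 the values were −0.60 for *Reg3b* and −0.08 for *Reg3g*. With all mice kept the sign turned too, to −1.94 for *Reg3b* and −1.43 for *Reg3g* with limma-voom and quality weights (a linear fit that weighs down unusual mice) and to −0.18 for *Reg3b* with the mouse number added to the fit as a replicate block, so the direction of either gene is not settled.

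The ratio of *Reg3b* to *Reg3g* CPM varied 4.02-fold over the 10 mice, from 1.57 in ceAF-5 to 6.32 in DSS-5, while *Reg3b* itself varied 116-fold. *Reg3a*, another gene of the same family, stood at 0.116, 2.45, 0.599, 1.6 and 0 CPM in DSS-1 to DSS-5 and 4.88, 0.0651, 0.713, 2.27 and 0 CPM in ceAF-1 to ceAF-5. It was also lowest in the 4 mice that were low for *Reg3b*.

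Genes that mark the position along the gut also differed between these mice. *Hoxb6*, which is used more in proximal than in distal colon, stood at 1.27, 25.3, 36.6, 22.4 and 0.96 CPM in DSS-1 to DSS-5 and 91.03, 0.846, 17.4, 2.98 and 0.88 CPM in ceAF-1 to ceAF-5. It was below 1.3 CPM in the 4 mice that were low for *Reg3b*, 2.98 CPM in ceAF-4, where *Reg3b* was high, and at least 17.4 CPM in the rest. *Hoxb8* was likewise at most at 0.811 CPM in the 4 mice and at least 1.43 CPM in the rest. *Hoxb13* and *Hoxa9* did not separate them. *Hoxb13* stood at 76.3, 206, 215 and 185 CPM in DSS-1, DSS-5, ceAF-2 and ceAF-5, and between 6.18 and 149 CPM in the rest. It was thus highest in ceAF-2, DSS-5 and ceAF-5, all low for *Reg3b*. ceAF-1 at 6.18 CPM and ceAF-4 at 10.2 CPM were lowest for *Hoxb13* and highest for *Reg3g*. DSS-1 broke this order, since it was low for *Reg3b* but below DSS-2, DSS-3, DSS-4 and ceAF-3 for *Hoxb13*. *Hoxa9* stood at 87.5, 35.6, 71.85 and 76 CPM in the 4 mice and between 5.88 and 184.5 CPM in the rest. *Car1*, a carbonic anhydrase of surface colonocytes, stood at 1118, 4653, 7774, 4956 and 115 CPM in DSS-1 to DSS-5 and 11922, 814, 3344, 753 and 505 CPM in ceAF-1 to ceAF-5. It did not follow *Reg3b* in every mouse, since ceAF-4, high for *Reg3b*, had less *Car1* than DSS-1 and ceAF-2. Other surface colonocyte genes differed in this, here chosen after their values were seen. *Mep1a* stood at 142, 118, 156 and 95.8 CPM in DSS-1, DSS-5, ceAF-2 and ceAF-5, and between 196 and 533 CPM in the rest. *Slc26a3* stood at 938, 1710, 2164 and 1351 CPM in the same mice, and between 576 and 1153 CPM in the rest. The 12 position genes had summed levels of 495, 545, 504, 576 and 594 CPM in DSS-1 to DSS-5 and 352, 824, 801, 653 and 632 CPM in ceAF-1 to ceAF-5, with *Hoxb13* the highest of them per length (median 45.8 FPKM) and 0 of them at 0 in all mice. The sum pools genes with different patterns over the mice, such as *Hoxb6* and *Hoxb13*. Of the 11 tested, 1 was higher in ceAF mice at an unadjusted p-value under 0.05, *Hoxd13*, beside 6.93% of all genes tested in either direction. *Hoxd13* had 0 counts in ceAF-4, stood at 121 CPM in ceAF-2 and 109 CPM in ceAF-3, and at most at 10.5 CPM in the other mice. The part of position in the *Reg3b* and *Reg3g* levels was not tested.

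The promoters of *Reg3b* and *Reg3g* are shown because the levels of both genes moved together over the mice. In the RefSeq windows of GRCm38.p6, which reach from upstream of the start of transcription to just past it, the *Reg3b* window is chr6:78370635-78370934 (plus strand) and the *Reg3g* window is chr6:78468825-78469124 (minus strand). Capitals mark matches on either strand to TTCNNNGAA (STAT type), GGGANNNNCC (NF-κB type), TTNNGCAA (C/EBP type) or TATAAA.

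Reg3b: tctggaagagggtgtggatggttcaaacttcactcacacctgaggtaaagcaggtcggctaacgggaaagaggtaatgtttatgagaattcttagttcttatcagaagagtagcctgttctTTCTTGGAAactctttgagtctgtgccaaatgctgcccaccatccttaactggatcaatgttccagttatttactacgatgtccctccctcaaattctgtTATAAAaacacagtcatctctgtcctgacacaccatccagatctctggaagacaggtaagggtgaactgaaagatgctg
Reg3g: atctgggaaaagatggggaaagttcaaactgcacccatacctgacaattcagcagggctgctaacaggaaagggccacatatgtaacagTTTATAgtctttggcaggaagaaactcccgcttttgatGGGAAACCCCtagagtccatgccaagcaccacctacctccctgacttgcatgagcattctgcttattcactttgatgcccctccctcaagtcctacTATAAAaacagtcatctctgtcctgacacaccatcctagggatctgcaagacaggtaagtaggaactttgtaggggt

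A global alignment of the windows had 207 identical bases, or 69% of their length. Both held TATAAA, at −29 in *Reg3b* and −27 in *Reg3g*, and *Reg3g* held a further match on the opposite strand at −161. *Reg3b* held a STAT type match, TTCTTGGAA, at −129, and *Reg3g* an NF-κB type match, GGGAAACCCC, at −123. Windows were found for 7 of the 10 genes, those of *Reg3b*, *Reg3g*, *Lcn2*, *Saa1*, *Saa3*, *Duox2* and *Duoxa2*. Among all 32851 windows of this length, the STAT type motif occurred in 8.3%, the NF-κB type in 20.7%, the C/EBP type in 10.8% and TATAAA in 13.6%. Among the 7, the numbers were 1, 1, 3 and 3, and matches to different motifs did not overlap in any of them. These matches describe the letters of the windows.

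*Lcn2* encodes lipocalin 2, which binds bacterial siderophores and so withholds iron, and which neutrophils store as well as epithelial cells. It stood at 137, 2.75, 14.4, 2.11 and 10.02 CPM in DSS-1 to DSS-5 and 0.992, 6.57, 3.07, 6.5 and 7.64 CPM in ceAF-1 to ceAF-5. DSS-1 was far above the other 9 mice, ceAF-1 was lowest, and of the other 4 DSS mice 2 lay above all ceAF mice and 2 within their range. The group means were 33.2 ± 58.1 CPM in DSS mice and 4.96 ± 2.81 CPM in ceAF mice (SD, n = 5 each). Between the groups, the log2 fold change of −2.73 (SE 1.08, 95% interval −5.12 to −0.35) had an unadjusted p-value of 0.0284, with adjusted p = 0.693 (edgeR quasi-likelihood, Benjamini-Hochberg). An exact permutation test on log2 CPM gave p = 0.325. Without DSS-1 the log2 fold change was −0.56 and the unadjusted p-value 0.412, and with the replicate block they were −0.87 and 0.5045.

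*Saa3*, a serum amyloid A that macrophages and epithelial cells make at sites of injury, stood at 479, 33.8, 72.8, 30.7 and 33.4 CPM in DSS-1 to DSS-5 and 86.7, 36.2, 23.7, 45.6 and 6.38 CPM in ceAF-1 to ceAF-5. It was again highest in DSS-1, whose level was above that of each other mouse by more than 5-fold, and lowest in ceAF-5. Its log2 fold change of −1.71 (SE 0.89, 95% interval −3.67 to 0.24) had an unadjusted p-value of 0.0803. Without DSS-1 the log2 fold change was −0.10, with an unadjusted p-value of 0.861.

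The neutrophil genes together were highest in DSS-1, as *Lcn2* and *Saa3* were. The 10 neutrophil markers had summed levels of 1638, 131, 299.8, 206 and 573 CPM in DSS-1 to DSS-5 and 27.2, 258, 198, 136 and 219 CPM in ceAF-1 to ceAF-5, so DSS-1 was highest and ceAF-1 lowest. In ceAF-1 *Lcn2* was lowest too, but *Saa3* was higher than in any other mouse except DSS-1. Of the 7 neutrophil markers tested, 4 were lower in ceAF mice at an unadjusted p-value under 0.05, beside 3.67% of all genes tested in that direction. None passed after adjustment over all genes tested, and none of the 10 was at 0 in all mice. Without DSS-1 the unadjusted p-value was 0.0915 for *S100a8* and 0.0252 for *S100a9*, which were among the 4. The most abundant per length was *Ly6g* (median 182 FPKM), which was highest in DSS-5 at 482 CPM and not in DSS-1 at 229 CPM. Outside DSS-1 and DSS-3 it made up most of the sum, such as 482 of 573 CPM in DSS-5 and 237 of 258 CPM in ceAF-2. In those mice the sum therefore mainly gives the level of *Ly6g*. The granulocyte receptor *Csf3r* stood at 112 CPM in DSS-1 and between 0.839 and 13.8 CPM in the other 9 mice. The ratio of *Lcn2* to *S100a8* CPM was not constant and lay between 0.225 in DSS-5 and 3.25 in ceAF-1. Macrophage and monocyte markers had summed levels of 472, 273, 304, 272 and 208 CPM in DSS-1 to DSS-5 and 78.98, 237, 273, 171 and 258 CPM in ceAF-1 to ceAF-5. Of these 10, all tested, 3 were lower in ceAF mice at an unadjusted p-value under 0.05, beside 3.67% of all genes tested in that direction. None passed after adjustment, *Lyz2* was the highest per length (median 71.8 FPKM) and none was at 0 in all mice. The part of these cells in the *Lcn2* and *Saa3* levels was not tested.

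*Saa1* encodes an acute phase apolipoprotein that the liver and the gut epithelium secrete. It stood at 1060, 818, 613, 1137 and 2771 CPM in DSS-1 to DSS-5 and 602, 932, 618, 1099 and 1033 CPM in ceAF-1 to ceAF-5. DSS-5 was highest, the other 9 mice lay within 602 to 1137 CPM, and the groups overlapped. For *Saa1* the log2 fold change of −0.58 (SE 0.38, 95% interval −1.41 to 0.25) had an unadjusted p-value of 0.152, and without DSS-5 the value was −0.06. Of the 8 liver markers, 2 were tested, *Trf* was the highest per length (median 9.42 FPKM), 0 were at 0 in all mice, and *Alb* had 1 to 15 counts per mouse. Their summed levels were 42.9, 39.6, 44.8, 25.9 and 33.8 CPM in DSS-1 to DSS-5 and 10.5, 73.9, 76.4, 23.03 and 52.1 CPM in ceAF-1 to ceAF-5. In DSS-5, *Trf* made up 27.6 CPM of the sum. The part of liver in the *Saa1* levels was not tested.

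*Saa2*, the nearest copy of *Saa1*, was almost silent beside it. Its median level was 0.295 FPKM against 404 FPKM for *Saa1*, with 10 to 33 counts per mouse. It stood at 1.27, 1.4, 0.718, 0.768 and 1.98 CPM in DSS-1 to DSS-5 and 0.839, 0.651, 0.548, 0.597 and 0.99 CPM in ceAF-1 to ceAF-5. DSS-5 was highest for *Saa2* too, and the groups overlapped. The log2 fold change was −0.76 (SE 0.33) with an unadjusted p-value of 0.0415, which was 0.0700 without DSS-1 and 0.132 without DSS-5. In the GENCODE M21 transcripts, 8.96% of the distinct 100-base stretches of *Saa1* also occur in another gene, in each case *Saa2*. The same share was 1.88% for *Duox2*, with *Duox1* as the other gene, and 0% for the other 8 genes. How the counting treated reads from such stretches is not given in the sources used here. Whether reads from *Saa1* made up part of the few *Saa2* counts was not tested.

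The promoters of *Saa1* and *Saa2* are shown because they are nearly alike although the counts are not, and those of *Saa3* and *Lcn2* because both genes were highest in DSS-1. The RefSeq windows of GRCm38.p6 are chr7:46742931-46743230 (minus strand) for *Saa1*, chr7:46751583-46751882 (plus strand) for *Saa2*, chr7:46715627-46715926 (minus strand) for *Saa3* and chr2:32387690-32387989 (minus strand) for *Lcn2*, with matches to the same motifs in capitals.

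Saa1: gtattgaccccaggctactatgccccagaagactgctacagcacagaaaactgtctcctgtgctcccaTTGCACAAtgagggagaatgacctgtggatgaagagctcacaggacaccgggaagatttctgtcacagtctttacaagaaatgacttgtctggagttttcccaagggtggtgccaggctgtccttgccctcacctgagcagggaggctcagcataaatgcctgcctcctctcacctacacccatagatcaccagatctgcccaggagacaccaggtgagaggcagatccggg
Saa2: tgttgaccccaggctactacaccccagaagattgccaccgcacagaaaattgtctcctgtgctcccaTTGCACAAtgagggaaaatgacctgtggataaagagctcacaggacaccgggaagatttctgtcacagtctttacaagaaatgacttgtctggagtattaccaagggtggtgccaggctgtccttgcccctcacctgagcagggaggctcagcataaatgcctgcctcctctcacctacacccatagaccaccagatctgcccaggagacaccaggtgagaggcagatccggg
Saa3: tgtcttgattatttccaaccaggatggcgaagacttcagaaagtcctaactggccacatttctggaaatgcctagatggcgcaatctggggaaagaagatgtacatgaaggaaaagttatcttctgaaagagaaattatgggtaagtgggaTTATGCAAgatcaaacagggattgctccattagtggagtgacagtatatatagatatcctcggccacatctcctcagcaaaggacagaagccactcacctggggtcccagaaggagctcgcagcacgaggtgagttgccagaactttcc
Lcn2: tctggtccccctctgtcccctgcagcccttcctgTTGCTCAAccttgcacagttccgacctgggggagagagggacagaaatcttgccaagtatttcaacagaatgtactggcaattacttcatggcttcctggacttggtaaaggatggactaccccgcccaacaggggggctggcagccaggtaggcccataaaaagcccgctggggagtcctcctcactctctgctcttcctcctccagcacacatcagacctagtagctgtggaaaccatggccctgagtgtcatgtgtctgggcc

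The *Saa1* and *Saa2* windows shared 287 bases in a global alignment, or 95.7% of their length, against 165 bases or 55% for *Saa1* and *Saa3*. The match in capitals in each of the 4 windows is of the C/EBP type, TTGCACAA at −182 in *Saa1* and at −183 in *Saa2*, TTATGCAA at −99 in *Saa3* and TTGCTCAA at −216 in *Lcn2*. *Cebpb*, which encodes a C/EBP factor, stood at 62.9 CPM in DSS-1 and between 7.15 and 12.6 CPM in the other 9 mice. *Cebpd*, which encodes another, was not highest in DSS-1, at 30.7 CPM there and 82.8 CPM in DSS-5. Whether any such factor was bound was not measured.

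*Dmbt1* encodes a large mucin-like scavenger receptor glycoprotein that binds bacteria. It stood at 4148, 7049, 5991, 5854 and 17114 CPM in DSS-1 to DSS-5 and 7382, 3821, 5237, 10667 and 6003 CPM in ceAF-1 to ceAF-5. DSS-5 was highest, ceAF-4 came next, and the other 8 mice lay between 3821 and 7382 CPM with both groups among them. Its log2 fold change of −0.28 (SE 0.40, 95% interval −1.16 to 0.60) had an unadjusted p-value of 0.501, and without DSS-5 it was 0.22. Several other genes were highest in DSS-5 as well, here chosen after their values were seen. *Pla2g2a*, a phospholipase gene that a natural frameshift disrupts in C57BL/6 mice, stood at 156 CPM in DSS-5 and between 4.73 and 32.02 CPM in the other 9 mice. *Lrg1*, an acute phase glycoprotein, stood at 150 CPM in DSS-5 and between 2.14 and 25.4 CPM elsewhere. *Saa4* stood at 4.44 CPM in DSS-5 and at most at 0.651 CPM elsewhere.

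*Nos2*, *Duox2* and *Duoxa2* make reactive species. *Nos2* encodes the inducible nitric oxide synthase and stood at 316, 176, 136, 122 and 578 CPM in DSS-1 to DSS-5 and 66.6, 266, 313, 259 and 139 CPM in ceAF-1 to ceAF-5. DSS-5 was highest and ceAF-1 lowest, and 4 of the 5 ceAF mice lay inside the range of the DSS mice. Between the groups, the log2 fold change of −0.35 (SE 0.50, 95% interval −1.44 to 0.74) had an unadjusted p-value of 0.497, and without DSS-5 it was 0.17.

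*Duox2* encodes the dual oxidase that makes hydrogen peroxide at the apical surface and stood at 732, 709, 481, 657 and 881 CPM in DSS-1 to DSS-5 and 477, 791, 962, 1174 and 678 CPM in ceAF-1 to ceAF-5. Its partner *Duoxa2*, which encodes the maturation factor needed to bring DUOX2 to the cell surface, stood at 145, 111, 70.9, 139 and 152 CPM in DSS-1 to DSS-5 and 50.6, 139, 159.6, 146 and 102 CPM in ceAF-1 to ceAF-5. Both genes were lowest in ceAF-1 and next lowest in DSS-3, and the groups overlapped. These were the steadiest of the 10 genes, with the highest mouse 2.46-fold above the lowest for *Duox2* and 3.16-fold for *Duoxa2*. The ratio of *Duox2* to *Duoxa2* CPM lay between 4.71 in DSS-4 and 9.43 in ceAF-1.

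The log2 fold changes were 0.24 for *Duox2* (SE 0.24, 95% interval −0.28 to 0.76) and −0.05 for *Duoxa2* (SE 0.30, 95% interval −0.70 to 0.60). The intervals leave room for a difference in either direction of less than 1 on the log2 scale. The sign for *Duoxa2* turned with several choices of mice and, with all mice kept, with limma-voom and quality weights (0.30). The paralogs were far lower, with *Duox1* at a median of 0.12 FPKM and *Duoxa1* at 1.64 FPKM. Their log2 fold changes were −0.35 (SE 0.31) and −0.14 (SE 0.35), with unadjusted p-values of 0.283 and 0.707.

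*Duox2* and *Duoxa2* lie head to head, and their promoters are shown because the levels of both moved together. The RefSeq windows of GRCm38.p6 are chr2:122298178-122298477 (minus strand) for *Duox2* and chr2:122298650-122298949 (plus strand) for *Duoxa2*, with 172 bases between the windows and 672 bases between the starts of transcription.

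Duox2: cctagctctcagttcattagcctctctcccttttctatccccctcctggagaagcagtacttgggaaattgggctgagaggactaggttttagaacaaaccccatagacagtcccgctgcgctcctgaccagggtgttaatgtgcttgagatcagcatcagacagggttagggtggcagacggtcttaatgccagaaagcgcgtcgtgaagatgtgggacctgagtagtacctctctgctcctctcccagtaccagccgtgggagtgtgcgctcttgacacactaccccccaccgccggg
Duoxa2: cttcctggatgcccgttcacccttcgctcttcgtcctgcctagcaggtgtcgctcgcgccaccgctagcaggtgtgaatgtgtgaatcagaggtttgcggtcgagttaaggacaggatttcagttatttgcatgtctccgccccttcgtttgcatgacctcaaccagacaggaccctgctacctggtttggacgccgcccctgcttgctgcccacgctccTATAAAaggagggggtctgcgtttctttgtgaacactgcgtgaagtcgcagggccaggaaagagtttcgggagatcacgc

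Of the motifs searched, TATAAA at −30 in *Duoxa2* was the only match in the pair. A global alignment of the windows had 145 identical bases, or 48.3%.

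The other oxidase of the colon epithelium, built from *Nox1* with its activator *Noxa1* and organizer *Noxo1*, was also read. *Noxo1* stood at 3.36, 4.05, 4.31, 4.04 and 3.72 CPM in DSS-1 to DSS-5 and 6.26, 4.95, 5.1, 5.97 and 6.6 CPM in ceAF-1 to ceAF-5. Each of the ceAF mice was above each of the DSS mice, which made it the 1 gene of the companion list without overlap (1.24% of all genes tested). Its log2 fold change of 0.57 (SE 0.16, 95% interval 0.21 to 0.92) had an unadjusted p-value of 0.00461, with adjusted p = 0.656 (edgeR quasi-likelihood, Benjamini-Hochberg), which does not pass. At 58 to 120 counts per mouse it was a low gene. *Noxa1* had means of 29.98 ± 4.9 CPM in DSS mice and 42 ± 13.5 CPM in ceAF mice (SD, n = 5 each) and a log2 fold change of 0.49 (SE 0.22), with an unadjusted p-value of 0.0482, which was 0.106 without DSS-1 and 0.466 with limma-voom and stayed under 0.05 in 6 of 22 alternative settings. *Nox1*, named after its values were seen, stood at 7.59, 16.2, 11.1, 12.1 and 27.7 CPM in DSS-1 to DSS-5 and 5.04, 27.3, 37.8, 35.1 and 62.4 CPM in ceAF-1 to ceAF-5. The ceAF mice other than ceAF-1 were all at or above 27.3 CPM and 4 of the DSS mice at or below 16.2 CPM, so ceAF-1 and DSS-5 made the groups overlap. The log2 fold change of *Nox1* was 1.17 (SE 0.53) with an unadjusted p-value of 0.0492, and 0.0999 without DSS-1. It was 1.53 with 0.0187 without DSS-5 and 1.23 with 0.00545 by limma-voom with quality weights. The unadjusted p-value stayed under 0.05 in 9 of 22 alternative settings.

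*Retnlb* encodes resistin-like molecule β, a goblet cell protein that kills Gram-negative bacteria. It stood at 152, 154, 169, 238 and 71.3 CPM in DSS-1 to DSS-5 and 123, 38.1, 66.3, 179 and 29.5 CPM in ceAF-1 to ceAF-5. Of the DSS mice, 4 lay between 152 and 238 CPM and DSS-5 at 71.3 CPM, whereas the ceAF mice spread from 29.5 to 179 CPM, and the groups overlapped. The group means were 157 ± 59.4 CPM in DSS mice and 87.2 ± 62.9 CPM in ceAF mice (SD, n = 5 each). For *Retnlb* the log2 fold change of −0.85 (SE 0.48, 95% interval −1.90 to 0.20) had an unadjusted p-value of 0.104, and an exact permutation test gave p = 0.0952. Leaving out 1 mouse moved the log2 fold change from −0.63 without ceAF-5 (unadjusted p-value 0.191) to −1.27 without ceAF-4 (0.0163). Limma-voom with quality weights gave −1.53 and an unadjusted p-value of 0.00145.

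The 10 goblet cell markers had summed levels of 17064, 13154, 12315, 17929 and 11884 CPM in DSS-1 to DSS-5 and 5488, 11753, 12833, 16613 and 11288 CPM in ceAF-1 to ceAF-5. The sum was lowest in ceAF-1, in which *Retnlb* was not among the lowest, and DSS-4 was highest for both. All 10 were tested, *Zg16* was the highest per length (median 1889 FPKM) and none was at 0 in all mice. At an unadjusted p-value under 0.05, 1 was lower in ceAF mice, beside 3.67% of all genes tested in that direction, and none passed after adjustment. The 1 gene was *Tff3*, a trefoil peptide of mucus, at 374 ± 114 CPM in DSS mice and 235 ± 86.6 CPM in ceAF mice (SD, n = 5 each). Its unadjusted p-value was 0.108 without DSS-1 and stayed under 0.05 in 12 of 22 alternative settings. ceAF-5, ceAF-2 and DSS-5, which were low for *Retnlb*, were also low for *Hoxb6*, at 0.88, 0.846 and 0.96 CPM. DSS-1, low for *Hoxb6*, was not low for *Retnlb*, whereas ceAF-3, at 17.4 CPM of *Hoxb6*, was. The parts of goblet cells and of position along the gut in the *Retnlb* levels were not tested. Of the cytokines known to induce *Retnlb*, *Il13* had 0 counts in all 10 mice and *Il4* had 7 to 20 counts per mouse. *Il4* had a log2 fold change of 0.49 (SE 0.33) and an unadjusted p-value of 0.166.

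The tissue carried a steady epithelial signal. The 10 epithelial markers had summed levels of 15890, 17250, 16742, 19580 and 14259 CPM in DSS-1 to DSS-5 and 17817, 18709, 17956, 16011 and 16670 CPM in ceAF-1 to ceAF-5, with *Krt8* the highest per length (median 2167 FPKM), 0 of 10 under an unadjusted p-value of 0.05 and none at 0 in all mice. Surface colonocyte markers summed to 12398, 17086, 19481, 19583 and 13900 CPM in DSS-1 to DSS-5 and 25405, 15579, 17177, 10209 and 11271 CPM in ceAF-1 to ceAF-5, with *Car1* highest per length (median 1764 FPKM), 0 of 10 under that limit and none at 0 in all mice. Among 8 Paneth cell markers of the small intestine, *Defa17*, *Defa21*, *Defa22* and *Defa30* were at 0 in all mice and *Lyz1* was the highest per length (median 2.32 FPKM). Their sums lay between 3.28 and 12.9 CPM, and 0 of the 2 tested were under that limit. The 2 tested, *Lyz1* and *Mmp7*, were counted in each mouse, at up to 6.95 CPM in DSS-1 and 12.3 CPM in ceAF-4.

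The companion list held 50 further antimicrobial and acute response genes, of which 41 were tested. At an unadjusted p-value under 0.05, 9 of the 41 (22%) passed, 6 lower and 3 higher in ceAF mice, beside 6.93% of all genes tested, and none passed after adjustment over all genes tested. In all, 28 were below 0 and 13 above, beside 48.6% of all genes tested below 0, with a median log2 fold change of −0.17. Without DSS-1, 3 were under 0.05, beside 712 of all 16713 genes tested in that fit. *Lypd8*, an epithelial protein that keeps flagellated bacteria off the surface, was the highest of the list per length at a median of 12332 FPKM. The genes that were lower included *S100a9* and *S100a8*, whose products form calprotectin and which were also counted among the neutrophil markers, *Retnlg* and the hemoglobin-binding *Hp*. *S100a9* stood at 697, 5.05, 84.6, 6.6 and 16.2 CPM in DSS-1 to DSS-5 and 0.305, 4.43, 2.52, 13.4 and 1.98 CPM in ceAF-1 to ceAF-5. DSS-1 was highest, DSS-3 next, and the groups overlapped. For *S100a9* the log2 fold change was −5.15 (SE 1.504) with an unadjusted p-value of 0.00568, and −2.62 with 0.0252 without DSS-1, but −2.35 with 0.188 by limma-voom with quality weights and −2.98 with 0.131 under the replicate block. For *S100a8* the log2 fold change was −3.98 (SE 1.38) (unadjusted p-value 0.0146, 0.0915 without DSS-1), for *Retnlg* −5.72 (SE 1.81) (0.00922, 0.0835 without DSS-1) and for *Hp* −2.76 (SE 1.05) (0.0237, 0.309 without DSS-1).

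**Figure D2:**
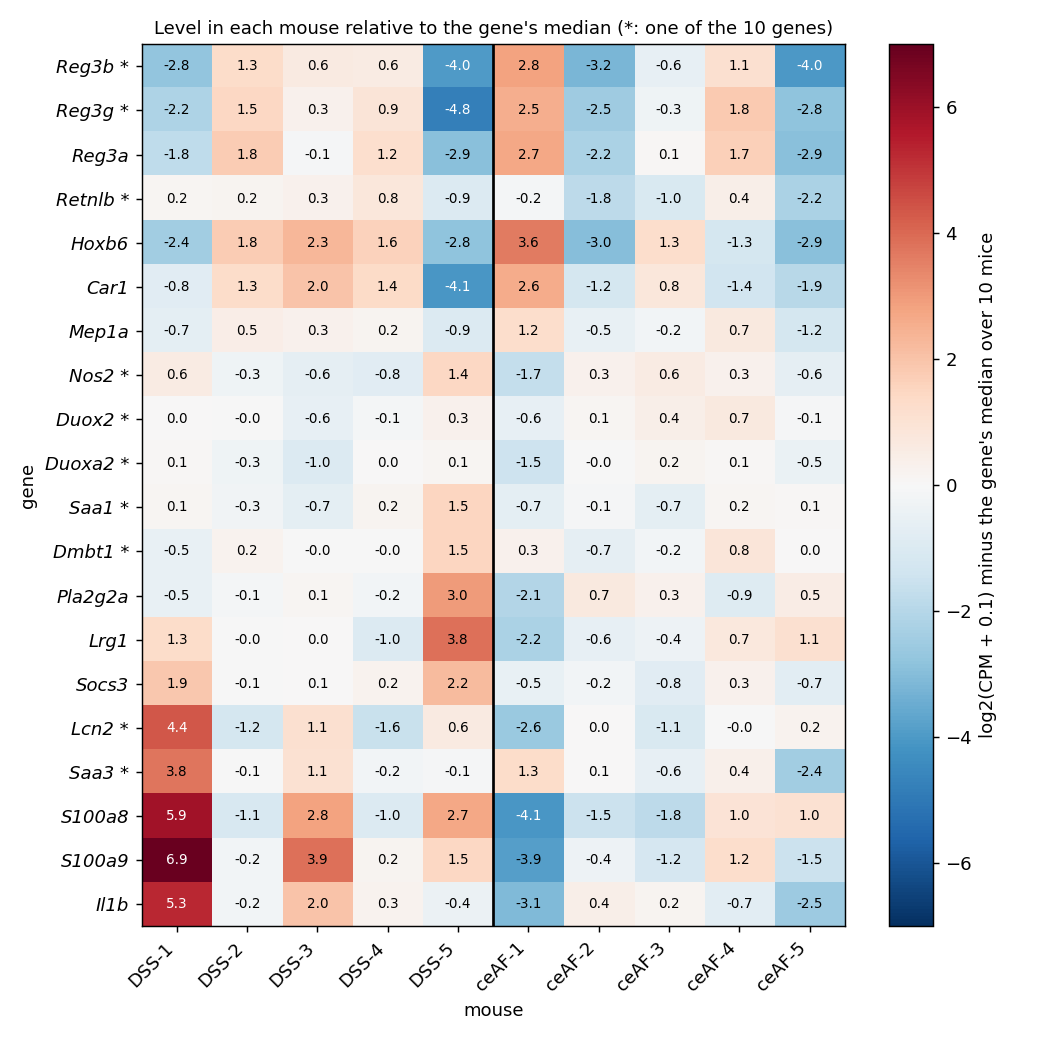
Level of the 10 genes (starred) and 10 others in each mouse, as log2(CPM + 0.1) minus the median of the gene over the 10 mice, with DSS mice left and ceAF mice right of the line and red above and blue below the median. *Reg3b*, *Reg3g* and *Reg3a* are low in DSS-1, DSS-5, ceAF-2 and ceAF-5, *Lcn2* and *Saa3* are highest in DSS-1 with *S100a8*, *S100a9* and *Il1b*, and *Saa1* and *Dmbt1* are highest in DSS-5 with *Pla2g2a* and *Lrg1*.

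The inducer list held 49 cytokines, receptors and transducers, of which 39 were tested. At an unadjusted p-value under 0.05, 8 of the 39 (20.5%) passed, all 8 lower in ceAF mice, beside 3.67% of all genes tested in that direction, and none after adjustment over all genes tested. Of the 39, 27 were below 0 and 12 above, with a median log2 fold change of −0.19. Without DSS-1, 2 were under 0.05, beside the same 712 of 16713 (321 lower). *Ifngr1* was the highest of the list per length (median 142 FPKM).

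Of the ligands, *Ifng*, which encodes interferon gamma, stood at 2.26, 3.5, 3.17, 4.74 and 1.08 CPM in DSS-1 to DSS-5 and 0.839, 1.69, 0.823, 0.119 and 0.44 CPM in ceAF-1 to ceAF-5. DSS mice other than DSS-5 were above each of the ceAF mice, and DSS-5 lay among them. The group means were 2.95 ± 1.37 CPM in DSS mice and 0.783 ± 0.589 CPM in ceAF mice (SD, n = 5 each). These gave a log2 fold change of −1.92 (SE 0.56, 95% interval −3.14 to −0.70), which had an unadjusted p-value of 0.00538, with adjusted p = 0.656 (edgeR quasi-likelihood, Benjamini-Hochberg), which does not pass, at 2 to 74 counts per mouse. T cell markers moved with it. The 10 markers summed to 128, 114, 115, 124 and 44.8 CPM in DSS-1 to DSS-5 and 42.4, 68.01, 57.2, 30.01 and 37.05 CPM in ceAF-1 to ceAF-5. Of the 10, all tested, 8 were lower in ceAF mice at an unadjusted p-value under 0.05, beside 3.67% of all genes tested in that direction. None of the 10 markers passed after adjustment over all genes tested, *Trbc2* was highest per length (median 13.2 FPKM) and none was at 0 in all mice. Their part in the *Ifng* level was not tested. *Il22*, a main inducer of *Reg3b* and *Reg3g*, was too low to be tested, at 0.232, 0.4, 0, 0.064 and 1.92 CPM in DSS-1 to DSS-5 and 0, 0.391, 0.11, 0.239 and 0.055 CPM in ceAF-1 to ceAF-5. It was highest in DSS-5, with 32 counts, where *Reg3b* and *Reg3g* were low and *Saa1*, *Dmbt1* and *Nos2* highest. *Il17a*, at 0 to 26 counts per mouse, was not tested either.

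*Il1b* stood at 597, 13.3, 61.1, 18.1 and 11.4 CPM in DSS-1 to DSS-5 and 1.68, 19.98, 17.4, 9.01 and 2.53 CPM in ceAF-1 to ceAF-5. DSS-1 was highest, DSS-3 next and ceAF-1 lowest. Its log2 fold change was −3.79 (SE 1.25) with an unadjusted p-value of 0.0112, and −1.35 with 0.0955 without DSS-1. *Il1a* had −3.08 (SE 1.10) and 0.0175, and −0.80 with 0.218 without DSS-1. *Il33*, an alarmin of stroma and epithelium, had −1.27 (SE 0.56) and 0.0449, and −0.63 with 0.200 without DSS-1.

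Of the transducers, *Socs3*, the feedback inhibitor that STAT3 switches on, stood at 151, 39.6, 42.7, 48.1 and 194 CPM in DSS-1 to DSS-5 and 28.5, 35.6, 23.6, 51.2 and 24.8 CPM in ceAF-1 to ceAF-5. DSS-1 and DSS-5 were high, and the other 3 DSS mice lay below ceAF-4 but above ceAF-1, ceAF-2, ceAF-3 and ceAF-5. Its log2 fold change was −1.54 (SE 0.48) with an unadjusted p-value of 0.00789, and −1.31 with 0.0216 without DSS-1, but −0.72 with 0.0750 by limma-voom with quality weights. *Rela*, an NF-κB subunit, had −0.32 (SE 0.12) and 0.0182, *Il6st*, the shared receptor chain of the interleukin 6 family, −0.53 (SE 0.21) and 0.0276, and *Cebpb* −1.31 (SE 0.53) and 0.0307. Without DSS-1 the unadjusted p-values of these 3 were 0.0501, 0.0794 and 0.102.

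Markers of the remaining cell types differed between mice as well. B cell markers, 9 of 10 of them counted under the symbols used, summed to 273, 46.8, 34.8, 39.8 and 44.2 CPM in DSS-1 to DSS-5 and 9.996, 48.8, 92.1, 14.3 and 134 CPM in ceAF-1 to ceAF-5, with *Cd79a* highest per length (median 6.56 FPKM) and 0 of 9 under an unadjusted p-value of 0.05. Fibroblast markers summed to 1179, 582, 576, 539.8 and 553 CPM in DSS-1 to DSS-5 and 199, 717, 679, 873 and 490.5 CPM in ceAF-1 to ceAF-5. Of them, *Col3a1* was highest per length (median 21 FPKM) and 2 of 10 were lower in ceAF mice at that limit, beside 3.67% of all genes tested in that direction. Smooth muscle markers summed to 2830, 2628, 1952, 1629 and 3144 CPM in DSS-1 to DSS-5 and 1652, 3445, 1473, 1758 and 2713 CPM in ceAF-1 to ceAF-5, with *Actg2* highest per length (median 197 FPKM) and 0 of 10 under it. None of these markers was at 0 in all mice. DSS-1, where *Lcn2* and *Saa3* were highest, was also highest for the B cell and fibroblast sums. The share of counts on mitochondrial genes was 5.06% to 6.54% in DSS mice and 4.53% to 9.74% in ceAF mice.

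The genes most like the mean of the 10 genes over the mice were found by Pearson's r on log2 CPM, with each gene centred, and are given as a description. They were *Zfp703* (r = 0.951), *Rtn4* (0.933), *Pde11a* (0.928), *Jun* (0.927), *Nrgn* (0.926), *Arpc1b* (0.924), *Rnf150* (0.922) and *Palmd* (0.921) over 10 mice. Spearman's rho lay between 0.794 and 0.952, and r without ceAF-5 and ceAF-2, the mice farthest from the median, between 0.778 and 0.938. Because the 10 genes did not share a pattern, 3 of them were also taken singly, chosen after their values were seen. *Reg3b* was most like *Reg3a* (0.984), *Smim38* (0.981), *Eci3* (0.979), *Mep1a* (0.976) and *Prkg2* (0.976). *Duox2* was most like *Cbfb* (0.963), *Arntl2* (0.94), *Mlph* (0.933), *Lrp5* (0.93) and *Psme3* (0.923). *Lcn2* was most like *Timp2* (0.969), *Qk* (0.966), *Efna5* (0.95), *Agtpbp1* (0.949) and *Hp* (0.943), for which r without DSS-1 and ceAF-1 was 0.886, 0.825, 0.845, 0.863 and 0.725.

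Positions are those of the deposited table, whose genome build is not given in the sources used here. On chromosome 6 it lists *Reg3b* (ENSMUSG00000071356) at 78347640 to 78350449 on the plus strand and *Reg3g* (ENSMUSG00000030017) at 78443252 to 78445855 on the minus strand. On chromosome 2 it lists *Lcn2* (ENSMUSG00000026822) at 32274645 to 32278264 on the minus strand, *Duox2* (ENSMUSG00000068452) at 122109728 to 122128930 on the minus strand and *Duoxa2* (ENSMUSG00000027225) at 122129381 to 122133366 on the plus strand. On chromosome 7 it lists *Saa1* (ENSMUSG00000074115) at 46389921 to 46392404 on the minus strand, *Saa3* (ENSMUSG00000040026) at 46361422 to 46365124 on the minus strand and *Dmbt1* (ENSMUSG00000047517) at 130633776 to 130723357 on the plus strand. *Nos2* (ENSMUSG00000020826) is listed on chromosome 11 at 78811613 to 78851080 and *Retnlb* (ENSMUSG00000022650) on chromosome 16 at 48637219 to 48639255, both on the plus strand. *Saa4* is listed between *Saa3* and *Saa1*, at 46377422 to 46382027, and *Saa2* at 46401214 to 46403737 beyond *Saa1*.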

How the data were processed

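Colon RNA of 5 DSS and 5 ceAF mice had been sequenced from poly(A) libraries by a company. The authors deposited whole-number read counts per gene without normalization, and FPKM, which equalled the count scaled by exonic length and library total within 0.005. The submitters' processing notes name cutadapt 1.9.1 and HISAT2 2.2.1; the counting program, strand setting and genome build are not given in the sources used here. Ages, doses and times come from the methods and the drawn scheme of the study. Genes without a symbol (2639) stayed in the fit.

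Genes were kept by filterByExpr (minimum count 10), scaled by TMM and tested two-sided with the quasi-likelihood test of edgeR 4.0.16 in R 4.3.3, with Benjamini-Hochberg adjustment over 16545 genes. Intervals of 95% used the moderated degrees of freedom. Log2 CPM had a prior count of 1. Alternatives used DESeq2 1.42.0 and limma 3.58.1, and the fit was tested on simulated data. Stretches shared between genes were counted in GENCODE M21 transcripts (GRCm38), promoter windows came from RefSeq and were aligned with Biopython 1.88, and figures used matplotlib 3.10.9 in Python 3.11.15. Exact tests covered the 252 assignments. No pair of libraries within a group was a copy, with a chi-square of 13.2 to 133 per gene.

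The genes and lists were chosen with earlier results of these data known. Named were the 10 genes, list genes with an unadjusted p-value under 0.05 (at most 8 per list), set partners, the 8 genes most like the mean, and of each marker list the most abundant gene and those at 0. Other genes were named after their values were seen, including *Nox1*, *Reg3a*, *Hoxb6*, *Hoxb8*, *Hoxa9*, *Hoxd13*, *Car1*, *Mep1a*, *Slc26a3*, *Csf3r*, *Cebpd*, *Pla2g2a*, *Lrg1* and *Saa4*. Wet-laboratory measurements were not used.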

Additional observations from a re-analysis of the deposited data

Results flagged for a closer look

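In the 54 groups of 5 mice examined (27 genes in each of both groups), 13 had a highest or lowest mouse whose gap to the nearest other mouse took an unusually large share of the whole range of the group (above the 95% critical value of Dixon, 0.71). About 2.7 would be expected by chance if the genes were independent and their levels normally distributed. Neither holds here, since CPM is skewed and many of these genes were named for low p-values or rise together in DSS-1, so the number of 13 is not shown to exceed chance. The share is in brackets. Of the 13, 10 were DSS-1 and 2 were DSS-5. DSS-1 was highest among DSS mice for *Lcn2*, at 137 CPM against 14.4 CPM in the nearest (0.908), and for *Saa3*, at 479 CPM against 72.8 CPM in the nearest (0.906). DSS-5 was highest for *Saa1*, at 2771 CPM against 1137 CPM in the nearest (0.757), and for *Dmbt1*, at 17114 CPM against 7049 CPM in the nearest (0.776).

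Among companion genes, DSS-1 was highest for *S100a9*, at 697 CPM against 84.6 CPM in the nearest (0.885), for *S100a8*, at 401 CPM against 47.8 CPM in the nearest (0.887), for *Retnlg*, at 263 CPM against 17.96 CPM in the nearest (0.935), and for *Hp*, at 164 CPM against 18.9 CPM in the nearest (0.907). It was lowest for *Noxa1*, at 21.4 CPM against 30.3 CPM in the nearest (0.746). Among inducers it was highest for *Il1b*, at 597 CPM against 61.1 CPM in the nearest (0.915), for *Il1a*, at 63.8 CPM against 7.6 CPM in the nearest (0.901), and for *Cebpb*, at 62.9 CPM against 12.6 CPM in the nearest (0.902). In the ceAF group, ceAF-4 was highest for *Retnlg*, at 4.36 CPM against 0.384 CPM in the nearest (0.928). The gaps were taken on CPM and not on its logarithm, so a low mouse was less easily flagged than a high one. ceAF-1 was not flagged, although it was lowest of all mice for *Lcn2*, *Saa1*, *Nos2*, *Duox2* and *Duoxa2* and highest for *Reg3b* and *Reg3g*. Its chi-square per gene against the other ceAF mice was 102 to 133, beside 24 to 87.5 between those. What sets DSS-1, DSS-5 and ceAF-1 apart was not tested.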

How the results depend on the processing

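Each result was recomputed in 20 planned settings and in 2 chosen after seeing the data, without DSS-1 and DSS-5 and without DSS-1 and ceAF-1. *Duox2* stayed above 0 and *Lcn2*, *Saa3* and *Retnlb* below 0 in all 22. The unadjusted p-value of *Lcn2* was no longer under 0.05 in 9 of 22 (0.0107 to 0.7425 over all 22), while *Retnlb* came under 0.05 in 5 of 22 and *Saa3* in 2 of the 21 that gave it a p-value. *Ifng* stayed under 0.05 in 21 of 21 settings and *Noxo1* in 22 of 22. The causes of the changes below were not tested.

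The number of genes past both limits (adjusted p-value below 0.05, log2 change of 1 or more) was 25 with DESeq2 (24 lower and 1 higher), 1 and 3 with limma-trend on log2(FPKM + 1) and log2(FPKM + 0.1), and 0 in the other settings that kept all mice. Genes with an unadjusted p-value under 0.05 numbered 2452 with limma-voom and quality weights and 1733 without a filter, and limma-trend split them into 664 lower and 314 higher with a pseudocount of 1 and 662 and 308 with 0.1. Without a filter, 2 of the 10 genes were under that limit. Companion genes under it numbered 5 with limma-voom, 5 with a minimum count of 50, and 3 and 4 with limma-trend, and inducers 4 with limma-voom and 4 and 5 with limma-trend. Limma-voom with quality weights turned the log2 fold changes of *Reg3b* (−1.94), *Reg3g* (−1.43), *Nos2* (0.47) and *Duoxa2* (0.30).

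Leaving out each mouse in turn gave 0 to 3 genes past both limits (3 without DSS-5), 712 (without DSS-1) to 1872 (without ceAF-1) genes at an unadjusted p-value under 0.05, 4 to 8 of the 10 genes below 0, 0 to 2 of them at an unadjusted p-value under 0.05 (0 without DSS-1 or ceAF-3, 2 without ceAF-4), and medians of −0.47 to 0.11. Companion genes under 0.05 ranged from 3 to 9 and inducers from 2 to 10. The log2 fold changes ranged from −0.60 to 1.31 for *Reg3b*, −0.0803 to 1.32 for *Reg3g*, −0.54 to 0.17 for *Nos2*, −0.19 to 0.14 for *Duoxa2* and −0.51 to 0.22 for *Dmbt1*. Without DSS-1 and DSS-5, 3 of the 10 were below 0, 0 were under 0.05, the median was 0.0909, 3 companion genes and 3 inducers were under 0.05, and *Saa1* (0.0112), *Nos2* (0.54), *Duoxa2* (0.17) and *Dmbt1* (0.0833) turned. Without DSS-1 and ceAF-1, 0 of the 10 and 3 inducers were under 0.05, and *Reg3b* (−0.88), *Reg3g* (−0.35) and *Duoxa2* (0.20) turned.

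With the mouse number as a replicate block, 694 genes had an unadjusted p-value under 0.05, with 3 companion genes and 2 inducers, 0 passed after adjustment, *Reg3b* turned to −0.18 and *Retnlb* had an unadjusted p-value of 0.00469, while *Lcn2* went to −0.87 with 0.5045. The labels do not say whether the numbers pair the mice. The deviations of same-numbered mice correlated at −0.249, −0.136, −0.004, −0.159 and 0.286. DSS-5 was the only DSS mouse that correlated best with the ceAF mouse of its own number. These correlations cannot decide whether the mice were paired, since other spread between mice can hide it.

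The share of stretches found in another gene was 31.5% and 2.11% for *Saa1*, 6.05% and 0.44% for *Duox2* and 3.57% and 0% for *Saa3* with stretches of 50 and 150 bases, since longer stretches are less often alike.

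Depth limits the low genes. *Il22*, *Il17a* and *Il13* were not tested, and *Ifng*, *Saa2*, *Il4* and *Duox1* rest on at most 74 counts per mouse. With 5 mice per group and such spread between mice, the intervals of *Reg3b*, *Reg3g*, *Lcn2* and *Saa3* span several-fold differences, and a p-value over the limit does not show that levels were alike.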
